A study of Arabidopsis thaliana with 8 samples.

Results

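The genes of carbon fixation and photorespiration were followed in leaves of Arabidopsis thaliana of 2 genotypes. The list of 34 genes was drawn up by function: the small subunits of Rubisco, Rubisco activase, the enzymes of the Calvin cycle, the CP12 proteins, and the enzymes of photorespiration with the catalase CAT2. Of these, 33 had a row among the 30361 features of the table, found by locus, and the 1 other, PGLP1B (AT5G36790), was not analysed here. The 33 were 20 genes of the Calvin cycle and 13 of photorespiration.

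The DGTT2 samples came from leaves of line 57, which carries the transgene DGTT2 of the green alga Chlamydomonas, an acyltransferase that turns diacylglycerol into the oil triacylglycerol. The WT samples came from leaves of wild type plants. Plants of both genotypes were 6 weeks old, were kept on soil at 22 C and had days of 16 h and nights of 8 h, and each genotype gave 4 biologically independent RNA samples, each on 1 array. All DGTT2 samples were of the 1 line, so what DGTT2 does and what else sets this line apart from WT cannot be told apart. The promoter of the transgene and the WT accession are not given in the labels. Each of 2 slides held 2 arrays of each genotype. Each feature of the table has an Arabidopsis locus, so the algal transcript was not measured and could not check the labels. By its title the study concerns carbon moved out of surface lipids and into triacylglycerols, and the comparison below asks whether the transcripts of the leaf's carbon-fixing pathways differed in that line.

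In the Calvin cycle, Rubisco joins carbon dioxide to ribulose bisphosphate, the product is reduced to triose phosphate with the energy of the light reactions, and most of the triose phosphate is used to rebuild the acceptor. Rubisco also takes oxygen in place of carbon dioxide, which gives phosphoglycolate. Photorespiration turns that compound back into a sugar acid in chloroplasts, peroxisomes and mitochondria, and releases carbon dioxide and ammonia on the way. In leaves these genes belong to the most strongly expressed of the nucleus and respond to light, sugars and the circadian clock.

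All values are log2 expression values as deposited, and a difference is DGTT2 minus WT on that scale, so that 1 stands for 2-fold. Calls were made in limma, where a gene had to reach an adjusted p under 0.05 (Benjamini-Hochberg over all features). RNA of whole leaves cannot tell fewer cells of a type from less RNA per cell. The markers of mesophyll, the photosynthetic tissue of the leaf, were high on every array, with LHCB1.3, LHCB2.1, LHCB3, PSAD1 and CA1 averaging 15.59 to 15.75 in DGTT2 and 15.61 to 15.69 in WT. Root markers (COBL9, EXPA7 and RHD6) averaged 5.35 to 5.56 in DGTT2 and 5.15 to 5.45 in WT. These averages lay below 5.95, the median level of 4414 pseudogene features, while EXPA7 alone had means above it (6.16 in DGTT2, 6.08 in WT). Markers of other tissues are given with GLDP1 below.

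No gene of the Calvin cycle or of photorespiration passed the test. Of the 33 genes 0 were called (limma), where 22 of 30361 features were (0.0725%). At an unadjusted p under 0.05 (limma) 1 of 33 was higher in DGTT2, where 1384 features (4.56%) were, and 0 of 33 were lower, where 1810 features (5.96%) were. The 4 DGTT2 values lay wholly above the 4 WT values in 1 gene and wholly below in 0 genes, where 2.31% and 3.32% of all features did so. The gene in both counts was GLDP1. The 33 differences ran from -0.12 in GGT1 to 0.27 in GLDP1, with a median of 0.014 beside -0.001 over all features, and 32 of the 33 lay within 0.25 either way, beside 76.3% of all features. Most of the list lay near the top of the scale, with 28 of the 33 genes at a mean over 15. Of the 805 features with a mean over 15, 97.8% lay within 0.25 either way and 0 were called. At an unadjusted p under 0.05 (limma) 7 of those 805 were higher and 8 lower. In 10 of them DGTT2 lay wholly above WT and in 9 wholly below. Every 95% interval of the 33 genes lay within 2-fold. The lowest bound was -0.39 and the highest 0.49 on the log2 scale, which is 0.763 to 1.4 as a ratio of DGTT2 to WT.

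**Figure D1:**
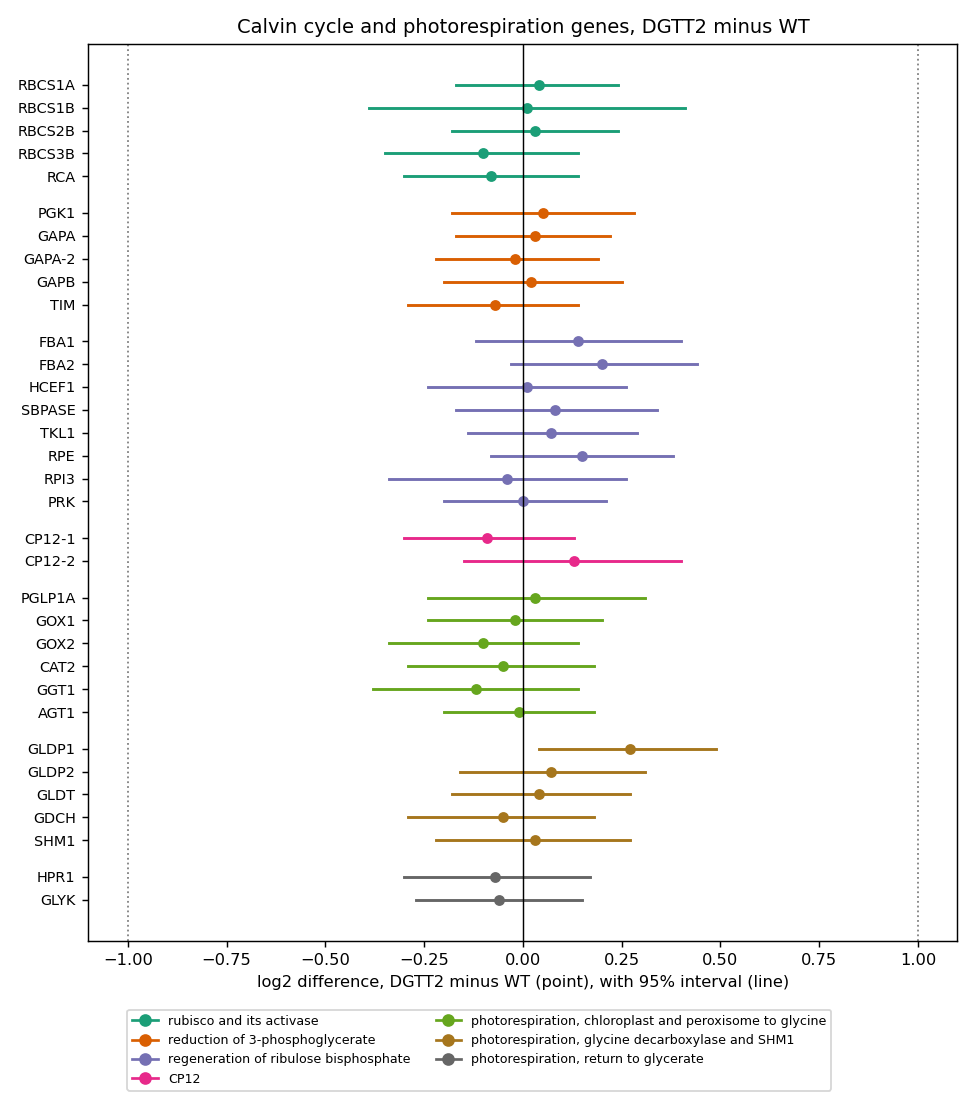
Log2 difference between DGTT2 and WT (points) with its 95% interval from limma (lines) for the 33 genes, coloured by role; dotted lines mark 2-fold. The interval of GLDP1, 0.04 to 0.49, is the 1 that does not hold 0.

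How large a rise the table could record bears on these intervals. The highest value of the table was 15.99, and 28 of the 33 genes had a mean over 15, beside 805 of all 30361 features. The WT mean lay less than 1 below the highest value in 29 of the 33 genes and less than 0.5 below it in 19, so a 2-fold rise had room on the scale in only 4 of them: SBPASE, GOX1, GLDP2 and RBCS1B. Falls had room. Among the 805 features with a mean over 15, the largest rise was 0.41 and the largest fall was -1.39, and 0 were higher by 0.5 or more while 3 were lower by 0.5 or more. From a mean of 10 upward, the spread within a genotype fell with level. Features with a mean below 10 were not examined for this. Its median SD was 0.172 over the 5165 features between 10 and 12, 0.141 between 12 and 14 and 0.13 between 14 and 15. Over the 805 features with a mean over 15 it was 0.124. The 33 genes had a median SD of 0.116. How far values near the top understate differences, falls as well as rises, was not measured.

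**Figure D2:**
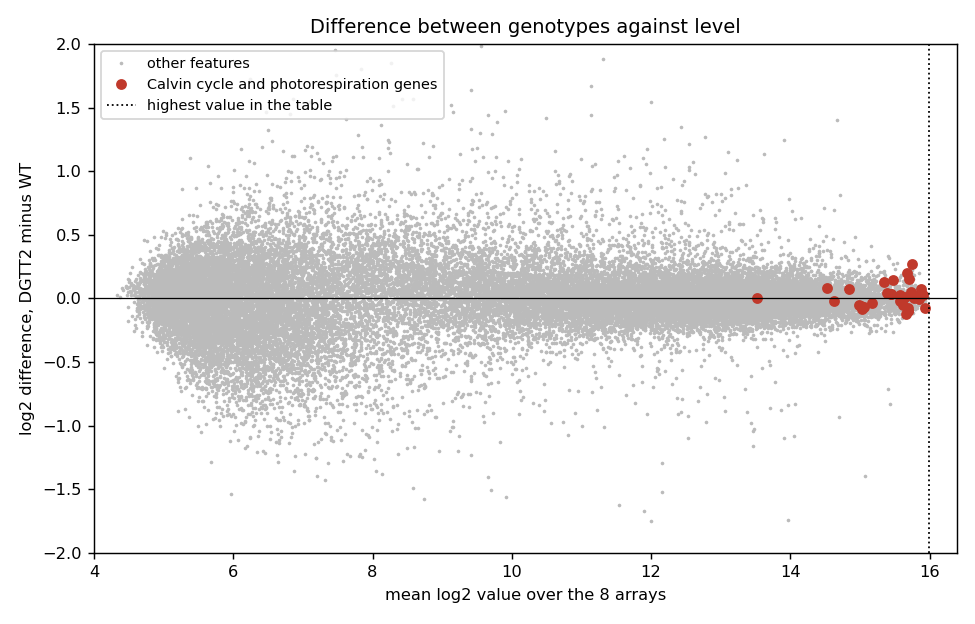
Log2 difference between DGTT2 and WT (vertical) against the mean log2 value over the 8 arrays (horizontal) for all features in grey and the 33 genes in red; 5 features lie outside the vertical range. The dotted line marks 15.99, the highest value of the table, and 28 of the red points have a mean over 15.

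Rubisco is built of a large subunit encoded in the chloroplast and a small subunit encoded by 4 nuclear RBCS genes. RBCS1A (AT1G67090), on chromosome 1, had log2 values of 15.84, 15.98, 15.91 and 15.93 in the 4 DGTT2 samples, against 15.99, 15.87, 15.74 and 15.93 in the 4 WT samples. These reach the top of the scale in both genotypes and overlap (difference 0.04, 95% interval -0.17 to 0.24). The other RBCS genes lie close together on chromosome 5, with RBCS1B next to RBCS2B in the gene order of assembly TAIR10.1. RBCS genes resemble each other closely in sequence and probes for 1 may read another, so the values of single copies are uncertain.

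RBCS1B (AT5G38430) had log2 values of 13.24, 13.89, 13.58 and 13.42 in DGTT2, against 13.69, 13.73, 13.56 and 13.12 in WT. With an SD of 0.28 in each genotype it varied most of the 33 genes, and its difference of 0.01 had the widest interval (-0.39 to 0.41). RBCS2B (AT5G38420) was at 15.45, 15.57, 15.43 and 15.41 in DGTT2 and at 15.46, 15.56, 15.33 and 15.37 in WT, which overlap almost fully (difference 0.03, 95% interval -0.18 to 0.24). RBCS3B (AT5G38410) was at 15.74, 15.76, 15.43 and 15.61 in DGTT2 and at 15.62, 15.86, 15.81 and 15.65 in WT. Its difference of -0.10 (95% interval -0.35 to 0.14) was the largest of the family and did not pass (limma adjusted p = 0.824).

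RCA (AT2G39730), the activase that frees Rubisco of bound sugar phosphates, read 15.97, 15.97, 15.68 and 15.96 in DGTT2, against 15.97, 15.97, 15.99 and 15.97 in WT. All arrays but DGTT2 replicate 3 stood at the top of the scale, so RCA could have shown a fall only. The difference was -0.08 (SE 0.10, limma adjusted p = 0.854), and -0.01 without DGTT2 replicate 3.

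**Figure D3:**
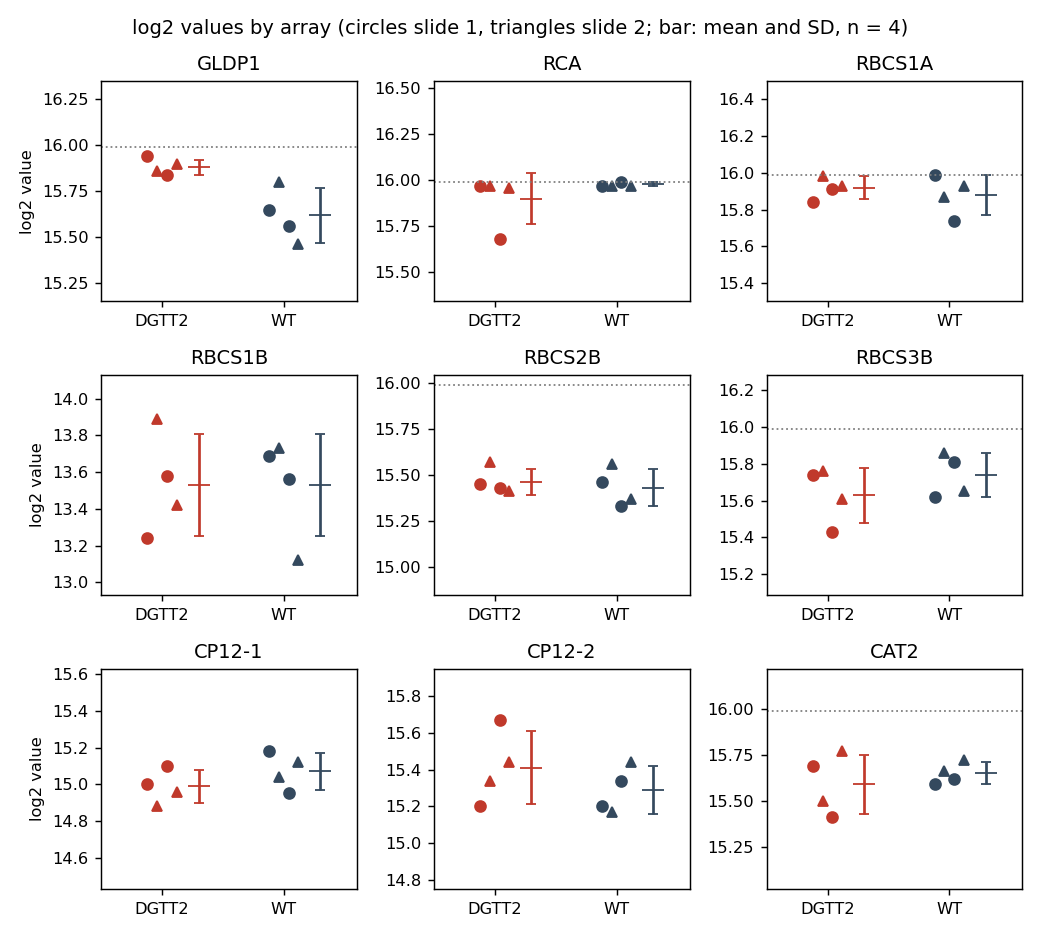
Log2 value on each array for GLDP1, RCA, the 4 RBCS genes, both CP12 genes and CAT2, DGTT2 left of WT; circles are slide 1 and triangles slide 2, bars give the mean and SD (n = 4), and the dotted line is the highest value of the table, 15.99. Every panel spans the same height on the log2 scale. The genotypes overlap in all panels but GLDP1.

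In the reductive steps, phosphoglycerate kinase (PGK1, AT3G12780) and the chloroplast glyceraldehyde phosphate dehydrogenase (subunits GAPA, AT3G26650, GAPA-2, AT1G12900, and GAPB, AT1G42970) make triose phosphate, and the triose phosphate isomerase TIM (AT2G21170) interconverts its forms. Their differences were 0.05 for PGK1, 0.03 for GAPA, -0.02 for GAPA-2, 0.02 for GAPB and -0.07 for TIM. All 5 had a mean over 15 and the lowest adjusted p was 0.867 (limma). The intervals of these 5 ran between -0.29 and 0.28.

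The enzymes that rebuild ribulose bisphosphate had the highest median of the Calvin cycle groups, 0.076, with 7 of 8 means higher in DGTT2 and 0 of 8 at an unadjusted p under 0.05 (limma). With a second quantile normalization or with arrays centred on their medians, 5 of 8 were higher. Of all features 50.3% had a lower mean in DGTT2, and 18021 of 30361 with arrays centred. Genes read on the same arrays are not replicates, so counts of direction, here and below, only describe a list. Set against each gene's own mean, the 8 genes averaged -0.065 to 0.092 on DGTT2 arrays and -0.086 to 0.039 on WT arrays. The chloroplast aldolases, which join triose phosphates, had differences of 0.20 in FBA2 (AT4G38970, 95% interval -0.03 to 0.44, limma adjusted p = 0.552) and 0.14 in FBA1 (AT2G21330, -0.12 to 0.40). FBA2 was at 15.61, 15.94, 15.85 and 15.72 in DGTT2, against 15.46, 15.68, 15.61 and 15.56 in WT, so that only DGTT2 replicate 1 lay within the WT range. The epimerase RPE (AT5G61410) had a difference of 0.15 (-0.08 to 0.38).

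The remaining enzymes of regeneration lay nearer 0. Sedoheptulose bisphosphatase (SBPASE, AT3G55800), a step specific to the cycle, was at 14.57 ± 0.02 in DGTT2 and 14.49 ± 0.20 in WT (SD, n = 4 each), with a difference of 0.08. It is 1 of the genes with room for a 2-fold rise, and its upper bound was 0.34. Transketolase (TKL1, AT3G60750) had a difference of 0.07, the chloroplast fructose bisphosphatase (HCEF1, AT3G54050) 0.01, the ribose phosphate isomerase RPI3 (AT3G04790) -0.04 and phosphoribulokinase (PRK, AT1G32060), which makes the acceptor, 0.00. CP12 proteins tie phosphoribulokinase and glyceraldehyde phosphate dehydrogenase into an inactive complex in the dark.

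CP12-1 (AT2G47400) was at 15, 14.88, 15.10 and 14.96 in DGTT2, against 15.18, 15.04, 14.95 and 15.12 in WT. CP12-2 (AT3G62410) was at 15.20, 15.34, 15.67 and 15.44 in DGTT2, against 15.20, 15.17, 15.34 and 15.44 in WT. The pair differed in opposite directions, -0.09 (95% interval -0.30 to 0.13) and 0.13 (-0.15 to 0.40), and both overlapped between genotypes. Without DGTT2 replicate 3 the difference of CP12-2 was 0.04.

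In photorespiration, 5 of 13 means were higher and 8 lower in DGTT2, with a median of -0.021. The first steps run from phosphoglycolate to glycine, and there 5 of 6 means were lower with a median of -0.038 and 0 of 6 at an unadjusted p under 0.05 (limma). Phosphoglycolate phosphatase (PGLP1A, AT5G36700) had a difference of 0.03 (95% interval -0.24 to 0.31). It has a nearly identical copy, PGLP1B, so its signal may hold both. Glycolate oxidase, which makes hydrogen peroxide in the peroxisome, is encoded by the direct neighbours GOX1 (AT3G14420) and GOX2 (AT3G14415), which had differences of -0.02 and -0.10 (-0.34 to 0.14). The aminotransferases that make glycine, GGT1 (AT1G23310) and AGT1 (AT2G13360), had differences of -0.12 (-0.38 to 0.14) and -0.01 (-0.20 to 0.18).

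CAT2 (AT4G35090), the main leaf catalase that breaks down the hydrogen peroxide of glycolate oxidation, was at 15.69, 15.50, 15.41 and 15.77 in DGTT2, against 15.59, 15.66, 15.62 and 15.72 in WT. The DGTT2 values lie on both sides of the WT values, with an SD of 0.16 in DGTT2 and 0.06 in WT. The difference was -0.05 (SE 0.10, limma adjusted p = 0.914).

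Glycine decarboxylase, a complex of P, T, H and L proteins in mitochondria, splits glycine and passes a carbon unit to serine hydroxymethyltransferase, SHM1 (AT4G37930). GLDP1 (AT4G33010), a gene for its P protein, was at 15.94, 15.86, 15.84 and 15.9 in DGTT2, against 15.65, 15.80, 15.56 and 15.46 in WT. The lowest DGTT2 value lay above the highest WT value by a small margin, and the spread was 0.04 in DGTT2 and 0.15 in WT (SD, n = 4 each). The difference was 0.27, a ratio of 1.2, with a 95% interval of 0.04 to 0.49 (limma adjusted p = 0.377). It was 0.28 on slide 1 and 0.26 on slide 2. Leaving out 1 array gave 0.21 (without WT replicate 4) to 0.33 (without WT replicate 2). With arrays centred on their medians the difference was 0.23 and the genotypes overlapped. The DGTT2 mean, 15.88, was close to the highest value of the table.

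Beside GLDP1, markers of other cell types gave these values, with 0 of them called. In the flower organ list (AP3, PI and AG) all 3 means were higher in DGTT2, the list averaged 6.30 to 6.52 in DGTT2 and 5.85 to 6.20 in WT, and 1 of 3 members, PI, was at an unadjusted p under 0.05 (limma). In the seed list (CRU3, SESA1, SESA2 and OLEO1) all 4 means were lower in DGTT2, and 1 of 4 members, SESA2, was at that p. The list averaged 6.43 to 6.73 in DGTT2 and 6.64 to 7.11 in WT. Both lists were low on the scale, where the median level of the pseudogene features was 5.95. Means below that level were those of AP3 in DGTT2 (5.91) and WT (5.54), PI in WT (5.81) and CRU3 in DGTT2 (5.94). SESA2, a seed storage albumin, was at 7.05, 7.56, 7.02 and 7.04 in DGTT2, against 7.88, 8.17, 7.83 and 7.89 in WT, without overlap (difference -0.77, SE 0.14, limma adjusted p = 0.105).

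The epidermis and guard cell list averaged 12.58 to 12.88 in DGTT2 and 12.39 to 12.71 in WT, and its members ran both ways. MYB60, a guard cell regulator, was at 8.80 ± 0.26 in DGTT2 and 8.23 ± 0.13 in WT (SD, n = 4 each), without overlap, and was the 1 of 4 at an unadjusted p under 0.05 (difference 0.57, limma adjusted p = 0.196). FAMA, a regulator of guard cell formation, did not overlap either, with a difference of -0.13 (95% interval -0.31 to 0.05), while the epidermal genes ATML1 and PDF1 overlapped, at -0.18 and 0.36. The phloem list averaged 13.63 to 13.83 in DGTT2 and 13.56 to 13.88 in WT. The part of these cell types in the difference of GLDP1 was not tested. The 3 markers of senescing leaves ran both ways, with SAG12 at -0.48 (95% interval -0.99 to 0.03), WRKY75 at 0.44 (-0.44 to 1.32) and SAG21 at 0.60 (-0.03 to 1.24). The SAG12 means, 5.41 in DGTT2 and 5.88 in WT, lay below 5.95, the median level of the pseudogene features.

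The other genes of the complex, and SHM1, overlapped between genotypes. GLDP2 (AT2G26080), the other P protein gene, was at 14.91, 15, 14.92 and 14.68 in DGTT2, against 14.92, 14.75, 14.84 and 14.71 in WT (difference 0.07, 95% interval -0.16 to 0.31). The T protein gene GLDT (AT1G11860) had a difference of 0.04 (-0.18 to 0.27), the H protein gene GDCH (AT2G35370) -0.05 (-0.29 to 0.18) and SHM1 0.03 (-0.22 to 0.27). Whether the difference of GLDP1 was larger than that of GLDP2 was not tested.

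The last steps return serine to the Calvin cycle as glycerate. Hydroxypyruvate reductase (HPR1, AT1G68010) had a difference of -0.07 (95% interval -0.30 to 0.17) and glycerate kinase (GLYK, AT1G80380) -0.06 (-0.27 to 0.15). Both means were lower in DGTT2 under all 4 scalings of the arrays.

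Differences between slides were of like size to those between genotypes. The median size of a difference over the 33 genes, its sign left aside, was 0.0547 between DGTT2 and WT and 0.0552 between slide 2 and slide 1. Over all features the 2 were alike as well, at 0.117 and 0.113. Within each slide, 9 of the 33 genes were higher in DGTT2 on both, 10 were lower on both and 14 changed sign between slides. Of all 30361 features, 9177 were higher on both, 9601 were lower on both and 11572 changed sign. RBCS1B was at -0.22 on slide 1 and 0.23 on slide 2, PGLP1A at -0.20 and 0.26, and RPI3 at -0.23 and 0.16. GLDP1 and FBA2 (0.20 and 0.21) had like differences on both.

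**Figure D4:**
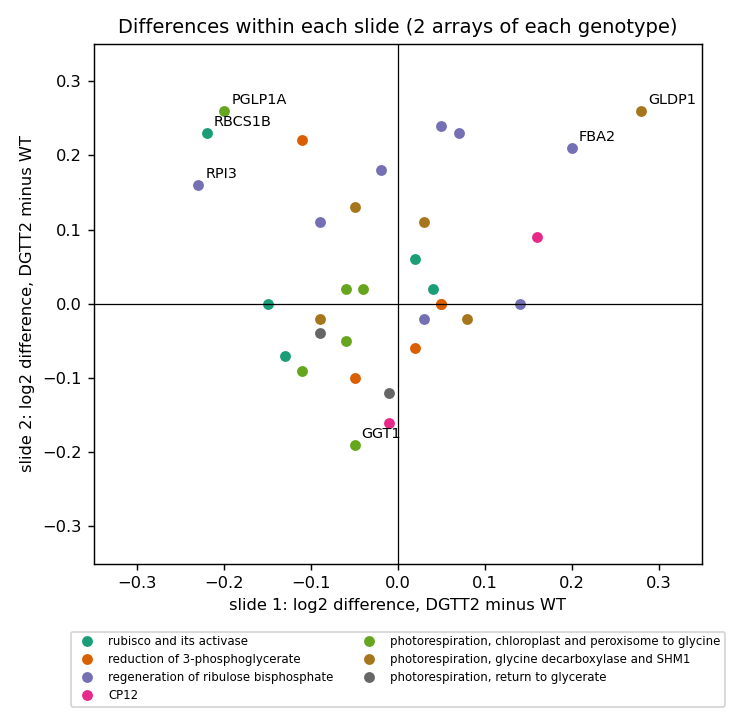
Log2 difference between DGTT2 and WT on slide 1 (horizontal) and slide 2 (vertical), each from 2 arrays of each genotype, for the 33 genes coloured by role. GLDP1 (0.28 and 0.26) and FBA2 (0.20 and 0.21) lie at the upper right, while RBCS1B, PGLP1A and RPI3 lie at the upper left with opposite signs.

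Averaged over genes and set against each gene's own mean over the 8 arrays, the 20 Calvin cycle genes were at -0.062, 0.072, 0.041 and 0.006 on the 4 DGTT2 arrays and at -0.011, -0.008, 0.009 and -0.047 on the 4 WT arrays. The lowest and the highest array were both DGTT2. The 13 photorespiration genes were at 0.028, -0.017, -0.029 and 0.012 in DGTT2 and at 0.026, -0.027, 0.028 and -0.020 in WT, with no order by genotype. The number of the 33 genes above their own mean was 18 to 22 per DGTT2 array and 15 to 19 per WT array.

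**Figure D5:**
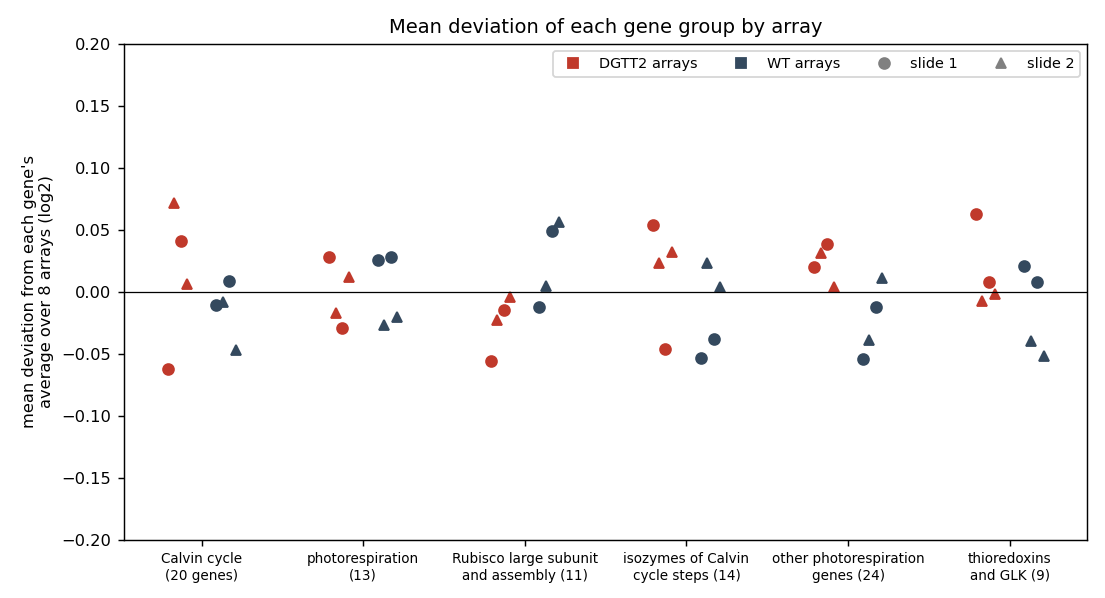
Mean deviation of each gene group from its genes' averages over the 8 arrays (log2) on each array, DGTT2 arrays in red left of WT arrays in dark blue, circles for slide 1 and triangles for slide 2. The 20 Calvin cycle genes run from -0.062 to 0.072, both extremes on DGTT2 arrays.

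Around these enzymes, 58 further genes of the same pathways were read from 4 lists drawn up by function. Of them 0 were called, where 0.0725% of all features were. At an unadjusted p under 0.05 (limma) 2 were higher, where 4.56% of all features were, and 1 was lower, where 5.96% were. The genotypes did not overlap in 3 of the 58, all higher in DGTT2, where 2.31% of all features lay wholly above and 3.32% wholly below. The median difference of the 58 genes was 0.004. In 11 genes of the Rubisco large subunit and of Rubisco assembly, 10 means were lower in DGTT2, with a median of -0.055 and 0 at an unadjusted p under 0.05 (limma). The number of lower means was 8 to 11 over the scalings, where 50.3% of all features were lower as deposited. Set against each gene's own mean, the 11 genes averaged -0.056 to -0.004 on DGTT2 arrays and -0.012 to 0.056 on WT arrays, which overlap. RBCL, the large subunit gene of the plastid genome, had a difference of 0.03 (95% interval -0.23 to 0.29) at 15.75 ± 0.08 in DGTT2 and 15.71 ± 0.20 in WT (SD, n = 4 each).

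The list of 14 isozymes of Calvin cycle steps held the 3 genes with an unadjusted p under 0.05. GAPCP1 and GAPCP2 encode the plastid glyceraldehyde phosphate dehydrogenases of glycolysis, distinct from the GAPA and GAPB enzyme of the Calvin cycle. GAPCP1 was at 11, 10.57, 10.71 and 10.64 in DGTT2, against 10.32, 10.11, 10.40 and 10.45 in WT, without overlap (difference 0.42, SE 0.12, limma adjusted p = 0.262). GAPCP2 was at 10.99, 10.76, 10.42 and 10.64 in DGTT2, against 10.21, 10.37, 10.36 and 10.48 in WT, with DGTT2 replicate 3 inside the WT range (difference 0.34, SE 0.13, limma adjusted p = 0.39). Both lie well below the top of the scale, and as close relatives they may share probe signal.

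RPI2, a ribose phosphate isomerase outside the chloroplast, had a difference of -0.25 (SE 0.11, limma adjusted p = 0.461), at 13.27 ± 0.16 in DGTT2 and 13.53 ± 0.11 in WT (SD, n = 4 each). On slide 1 it was -0.37 and on slide 2 -0.14. The remaining 11 isozymes lay between -0.16 and 0.22.

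Of 24 other photorespiration enzymes and carriers, 18 means were higher in DGTT2, with a median of 0.048, a range of -0.14 to 0.20 and 0 at an unadjusted p under 0.05 (limma); with arrays centred on their medians 13 were higher. BASS6, which exports glycolate from the chloroplast, was the 1 whose genotypes did not overlap, and is named after its values were seen. It was at 11.78 ± 0.13 in DGTT2 and 11.58 ± 0.04 in WT (SD, n = 4 each), with a difference of 0.20 (95% interval -0.02 to 0.41).

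Thioredoxins switch Calvin cycle enzymes on in the light, and the GLK factors turn on nuclear genes of photosynthesis. Of 9 genes in this list 0 had an unadjusted p under 0.05 (limma). TRXF1 had a difference of 0.00 (95% interval -0.24 to 0.25), TRXF2 0.02 (-0.22 to 0.25), GLK1 -0.03 (-0.22 to 0.15) and GLK2 0.13 (-0.08 to 0.34). TRXM1, the 1 gene of the list without overlap and named after its values were seen, was at 15.81 ± 0.07 in DGTT2 and 15.66 ± 0.09 in WT (SD, n = 4 each). Its difference was 0.14 (95% interval -0.06 to 0.35, limma adjusted p = 0.641).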

How the data were processed

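The authors deposited log2 expression values of 1-colour Cy3 NimbleGen arrays, 1 column for each of 8 samples. RMA and Partek are named, per the submitters' processing notes. How both were set, which probes make up a feature and which annotation was used are not stated per the labels. That the values are log2 was inferred from their range (4.20 to 15.99, array medians 10.19 to 10.28). Correlations between arrays were 0.988 to 0.995. Background and detection values were not used, and 4 arrays a genotype limit the precision.

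The deposited values went into limma 3.58.1 (R 4.3.3; lmFit, then eBayes; genotype alone in the model; two-sided), and p-values were adjusted by Benjamini-Hochberg over all 30361 features. The fit was checked on simulated data with independent normal noise. The simulation had no top of the scale and no slide or position effect, so it does not cover values near the top. Members, lists and tests were chosen with earlier results of these data known. Of the 33 genes, those at an unadjusted p under 0.05 or without overlap, the RBCS genes, RCA, the CP12 genes and CAT2 were to be given array by array. From the further lists, up to 4 genes at that p were to be named, and always RBCL, GLK1, GLK2, TRXF1 and TRXF2. FBA2, GLDP2, BASS6, TRXM1 and the markers SESA2, MYB60 and FAMA were singled out after their values were seen. Names follow loci through the RefSeq table of TAIR10.1, and 29976 features have a locus there. DGTT2 took positions 3 and 4 of each slide and WT positions 1 and 2, so genotype and position cannot be told apart. The other settings tried were centring on medians, a repeated quantile normalization, cyclic loess, a filter on low signal, slide and replicate blocks, another eBayes setting, weighting of arrays, single slides and leaving out each array.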

Additional observations from a re-analysis of the deposited data

Results flagged for a closer look

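In 4 of 66 groups of 4 arrays, 1 array lay far from the other 3. For independent, normally spread values chance gives about 1 in 20. These groups share arrays and most lie near the top of the scale, so that rate is only a guide. RCA on DGTT2 replicate 3 was at 15.68, with the next array of DGTT2 at 15.96. AGT1 on the same array was at 15.75, with the next at 15.86. GAPB on WT replicate 2 was at 15.67, with the next WT array at 15.83. GLYK on WT replicate 3 was at 14.90, with the next WT array at 15.09. All 4 stood below the rest of their group.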

How the results depend on the processing

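Under all 19 alternatives 0 of the 33 genes were called. Of the 33 differences 15 kept their sign throughout, among them GLDP1, FBA2, RCA, RBCS3B, CP12-1 and CP12-2, and 18 changed it at least once; PRK did so under 8 alternatives. GLDP1 stayed at an unadjusted p under 0.05 (limma) with every scaling, the filter, the blocks, the other eBayes setting and array weights (adjusted p 0.244 to 0.429). It did not on either slide alone, nor without DGTT2 replicate 1 or 4 or WT replicate 3 or 4, and leaving out 1 array gave adjusted p-values of 0.21 to 0.669.

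With arrays centred on their medians, 13 of all features were called, the median of the 33 genes was -0.024 beside -0.039 over all features, and 0 genes had genotypes that did not overlap. The trend and robust setting called 46 features and put 2 of the 33 genes at an unadjusted p under 0.05, FBA2 beside GLDP1. Slide as a fixed block called 69 features. The replicate block called 3 features, 0 of them among the 33 genes. Same-numbered arrays share a slide, but their deviations correlated at 0.0661, 0.196, -0.0266 and -0.0161. Of the 4 DGTT2 arrays 1 correlated best with its own number, so the numbers were not taken to pair the samples. The best matches of DGTT2 replicates 1 to 4 were WT replicates 3, 2, 1 and 2, each on the same slide. Slide was not in the main model. Slide 1 alone called 1 feature, with a median of -0.017 over the 33 genes, 0 at an unadjusted p under 0.05 and 6 without overlap. Slide 2 alone called 1 feature, with 0 and 13 genes in the last 2 counts. With 2 arrays against 2, separation is frequent by construction. The share of all features without overlap was not counted on single slides, so the 6 and 13 say nothing particular to the 33 genes.

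Leaving out 1 array moved the number of called features widely, with 5 when WT replicate 4 was left out and 39 when it was WT replicate 2. It moved the genes higher at an unadjusted p under 0.05 between 0 and 1, those without overlap between 1 and 3 and the median between -0.002 and 0.027. The share of all features without overlap was not counted with 1 array left out. The limit of depth is the top of the scale: 29 of the 33 WT means lay less than 1 below the highest value.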
